A study of Mus musculus with 6 samples.

Results

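The genes described here encode the chaperones of the cytosol and the mitochondria together with the heat shock factors that control many of them. They were chosen by name, as protein-coding genes carrying 1 of 40 listed symbols and present in both expression tables of the series, and 37 of the 11789 protein-coding genes shared by the tables met that rule. Of the other three symbols, Cct6a is typed as a processed transcript in the tables and its values are given apart from the set. Hspa1a and Hspa1b, the stress-inducible HSP70 genes, had no value for any library in the expression tables and could not be analysed here. Each table holds only genes that reach 0.5 FPKM in at least 1 library, so both genes did not reach it or were not quantified.

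RNA was measured by poly(A) RNA-seq in 6 libraries of NE-4C, a mouse neural stem cell line from brain that the design text describes as lacking p53. All lines carried a knockout of H3f3a, a gene for the histone variant H3.3, and all stably expressed an HA-tagged H3.3 in its place. H3.3WT (2 libraries) expressed wild-type H3.3 on the H3f3a knockout. Cbfa2t2_KO (2 libraries) expressed wild-type H3.3 on a double knockout of H3f3a and Cbfa2t2, a gene for a transcriptional corepressor. H3.3K27M (2 libraries) expressed H3.3 with methionine at lysine 27 on the H3f3a knockout. Cells were grown in minimum essential medium with fetal bovine serum. The labels give neither the promoter of the tagged H3.3 nor whether a line is 1 clone. They call the second library of each group a repeat without naming a separate culture, so the p-values rest on a spread between libraries that may be technical. The series' title presents CBFA2T2 as a reader of histone H3 lysine 27 that acts on metabolic genes, and chaperones are not named in it.

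Chaperones bind proteins that are not yet folded or have lost their fold. In the cytosol, HSP70 takes up short hydrophobic stretches with the help of J-domain cochaperones and releases them through exchange factors, HSP90 matures kinases and hormone receptors with its own cochaperones, and the CCT ring folds actin and tubulin delivered by prefoldin. In mitochondria, HSP70 draws imported proteins through the inner membrane and the HSP60 and HSP10 ring folds them. Heat shock factor 1 switches on many of these genes when unfolded proteins build up, by binding a DNA element built from inverted repeats of the unit NGAAN. Proliferating cells in general hold high levels of the constitutive chaperones, and the factor HSF2 is also known for a part in brain development.

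Values are FPKM, fragments scaled to transcript length and to the mapped fragments of the library, which allow levels to be compared between genes. One table pairs Cbfa2t2_KO with H3.3WT (14431 genes), the other pairs H3.3K27M with the same H3.3WT libraries (14318 genes), and 14082 genes are in both. A marker with no value in a table, called not measured below, did not reach its floor of 0.5 FPKM in any library or was not quantified. No counts were used, and without a known depth no counting interval can be given. The libraries summed to between 363586 and 419389 FPKM. Cbfa2t2 itself stood at 1.38 and 1.35 FPKM in H3.3WT, 1.02 and 0.769 in Cbfa2t2_KO and 2.02 and 0.856 in H3.3K27M, and its difference between Cbfa2t2_KO and H3.3WT did not pass the test (log2 change -0.32 ± 0.16 SE, adjusted p = 0.153). H3f3a RNA fell against H3.3WT by a log2 change of -1.05 (adjusted p = 0.00501) in Cbfa2t2_KO and -1.09 (adjusted p = 0.00708) in H3.3K27M, and whether it includes RNA of the introduced H3.3 was not tested. Of 10 neural stem cell markers, 8 were measured, with a summed level of 113 to 125 FPKM in H3.3WT, 81.9 to 93.8 in Cbfa2t2_KO and 111 to 119 in H3.3K27M. Sox2 was at 30.9 and 34.4 FPKM in H3.3WT and at 12.3 and 9.55 in Cbfa2t2_KO, while Pax6 was under 1 FPKM in every library. Single members differed from the sum in direction. Nes was at 35.2 and 38.8 FPKM in H3.3WT, 23.97 and 18.1 in Cbfa2t2_KO, and 16.8 and 14.3 in H3.3K27M, whereas Vim was at 10.3 and 12.2, 27.3 and 26.5, and 34.6 and 41.8 FPKM, and Prom1 was also higher in both lines than in H3.3WT (2.84 to 3.29 against 5.78 to 7.61 FPKM). The 4 measured neuron markers of 8, mostly Tubb3, summed to 71.6 to 73.6 FPKM in H3.3WT, 128 to 144 in Cbfa2t2_KO and 70.6 to 73.9 in H3.3K27M. Elavl3 and Rbfox3 of that list were lower outside H3.3WT, Rbfox3 at 1.83 and 1.64 FPKM in H3.3WT, 1.18 and 1.14 in Cbfa2t2_KO and 0.702 and 0.571 in H3.3K27M. Of 5 microglia and leukocyte markers none was measured, and of 4 endothelial markers 2 were measured, Tek at under 0.7 FPKM in all 6 libraries and Pecam1 at under 0.6 in the 4 that have a value. The 4 mesenchymal markers of 5 in both tables, mostly Twist1, summed to 21.6 to 24.6 FPKM in H3.3WT, 14.3 to 15.6 in Cbfa2t2_KO and 17.5 to 17.7 in H3.3K27M. The collagens of the list differed among themselves. Col3a1 was at 0.619 and 0.582 FPKM in H3.3WT, 2.18 and 2.04 in Cbfa2t2_KO and 1.96 and 1.99 in H3.3K27M. Col1a1 was at 0.339 and 0.285 FPKM in H3.3WT and 1.81 and 1.76 in Cbfa2t2_KO. It had no value in H3.3K27M, which places both of those libraries under the floor of 0.5 FPKM. Col1a2 overlapped between groups, at 0.686 and 0.882 FPKM in H3.3WT, 0.870 and 0.801 in Cbfa2t2_KO, and 1.02 and 0.812 in H3.3K27M. In bulk libraries of this kind, fewer cells of a type and less RNA per cell cannot be told apart, and the part of the marker differences in the chaperone values was not tested.

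Chaperone RNA was abundant in all 3 lines. The summed level of the 37 genes was 3963 and 4127 FPKM in H3.3WT, 4531 and 4446 in Cbfa2t2_KO and 5207 and 5417 in H3.3K27M. Both H3.3K27M libraries therefore lay above the other four. As a share of the FPKM of all genes in both tables, the sum was 1.09% and 1.13% in H3.3WT, 1.21% and 1.13% in Cbfa2t2_KO and 1.40% and 1.30% in H3.3K27M. The median chaperone gene was at 52.0, 40.9 and 53.4 FPKM in H3.3WT, Cbfa2t2_KO and H3.3K27M, against 5.11, 4.57 and 4.51 for all genes. Hsp90ab1, the constitutive cytosolic HSP90, was the highest of the 37 in every group and ranked 37, 28 and 29 among 14082 genes in H3.3WT, Cbfa2t2_KO and H3.3K27M. Fkbp4, an HSP90 cochaperone of the immunophilin family, came second. At the low end, Dnajb4, a J-domain cochaperone, stood at 0.361 to 0.529 FPKM in all 6 libraries. Hspb8, a small heat shock protein, stood at 0.807 and 0.842 FPKM in H3.3WT, 0.0365 and 0.111 in Cbfa2t2_KO, and 0.114 and 0 in H3.3K27M. Hspb8 was thus lower in all libraries of both other lines than in H3.3WT, but it and Dnajb4 were under the mean of 1 FPKM required for a test.

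**Figure D1:**
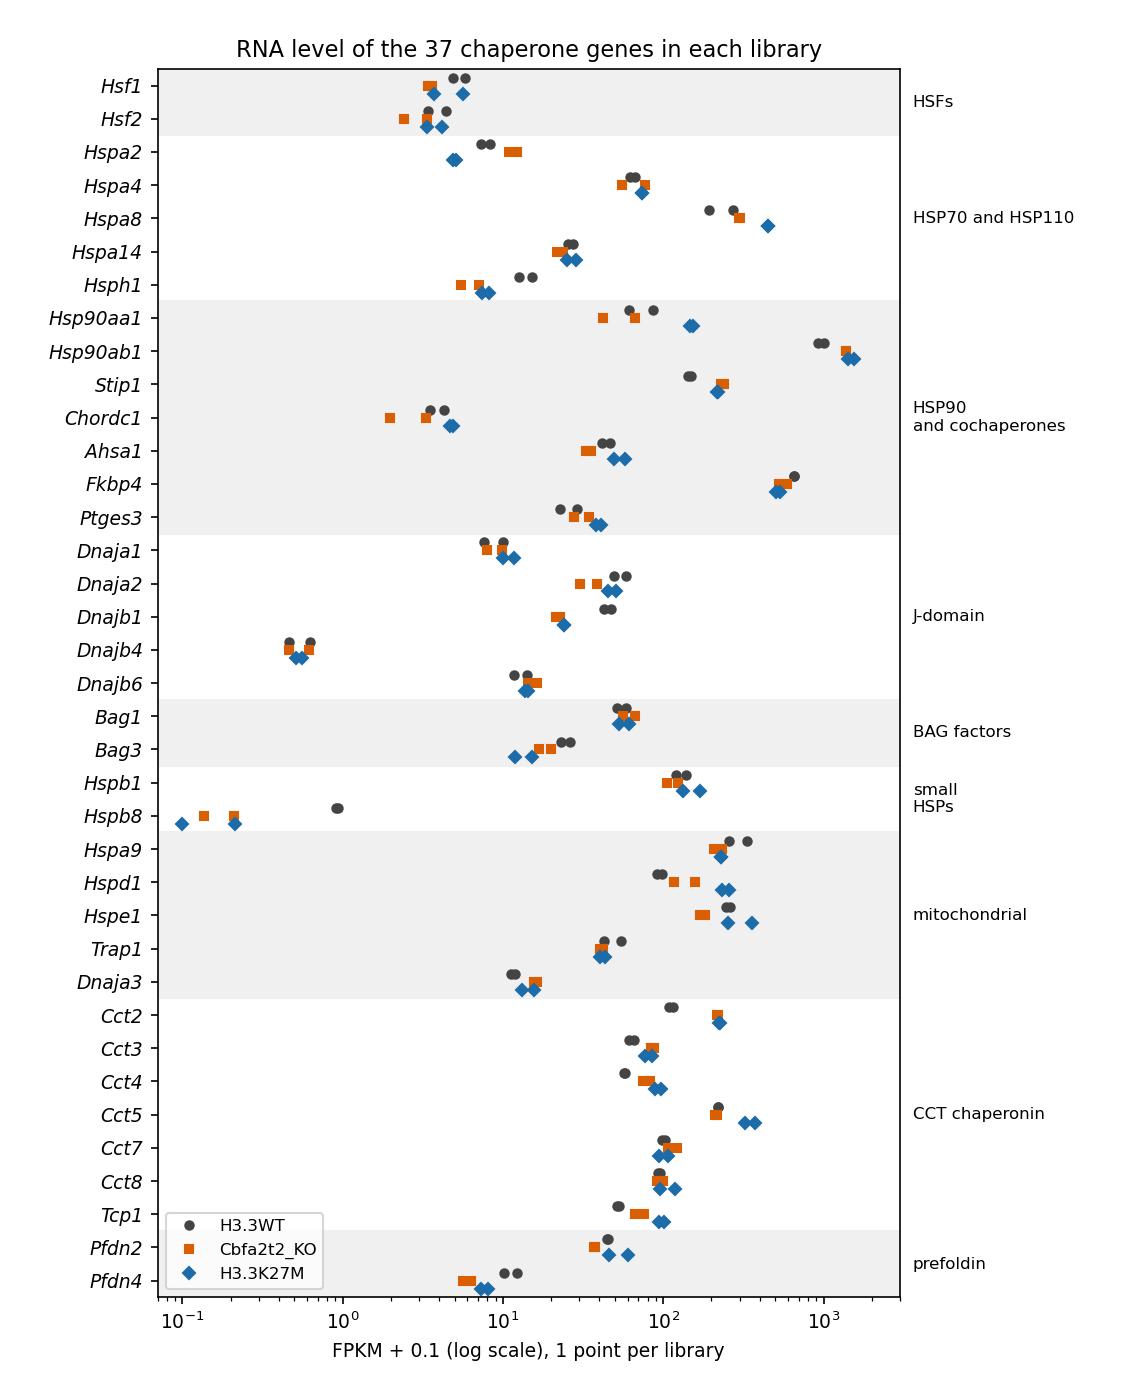
FPKM + 0.1 on a log axis for each of the 37 chaperone genes, 1 point per library, with the groups marked by shape and colour and the genes ordered by role. Hsp90ab1 and Fkbp4 are the highest in all groups, and Dnajb4 and Hspb8 lie under 1 FPKM in every library.

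The remaining 35 genes were tested on log2(FPKM + 1) with limma over all genes, with Benjamini-Hochberg adjustment and a threshold of 0.05. That scale understates the change of low genes. Between Cbfa2t2_KO and H3.3WT, 13 of the 35 passed (37.1%, against 34.6% of the 11626 genes tested), 8 of them higher in Cbfa2t2_KO (13.1% of all genes) and 5 lower (21.5% of all genes). Between H3.3K27M and H3.3WT, 12 of 35 passed (34.3%, against 26.2% of 11623 genes), 9 higher in H3.3K27M (8.42% of all genes) and 3 lower (17.8% of all genes). Both shares called were thus close to or moderately above those of all genes. Both comparisons share the H3.3WT libraries, and their values are given side by side without a test of their likeness. In the comparison of H3.3K27M with Cbfa2t2_KO, 6 of 35 passed (17.1%, against 7.80% of 11601 genes), 5 higher in H3.3K27M (3.12% of all genes) and 1 lower (4.68% of all genes). The median log2 change of the 35 genes was -0.03, 0.21 and 0.24 in the 3 comparisons, against -0.11, -0.12 and -0.02 for all genes tested. The libraries of the groups did not overlap for 28, 24 and 25 of the 35, against 70.4%, 66.3% and 58.2% of all genes tested. Passing in at least 1 comparison were 19 genes, 16 passed in none, and the other two were not tested.

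Some of these counts moved with the processing. Median-of-ratios scaling moved the median of all genes to 0.00 in both comparisons with H3.3WT, and the share of all calls that were higher from 37.9% to 50.8% in Cbfa2t2_KO and from 32.1% to 49.0% in H3.3K27M. A sequence correction removes each library's trends on GC content, transcript length and number of exons. It gave 5 chaperone genes higher and 11 lower in Cbfa2t2_KO, and 9 higher and 6 lower in H3.3K27M. Calls on all genes also rose under it. They numbered 4850 of 11614 in Cbfa2t2_KO (36.5% of them higher) and 3690 of 11611 in H3.3K27M (31.8% of them higher). Leaving out 1 library left 2 to 3 genes higher and 2 to 4 lower in Cbfa2t2_KO, and 2 to 7 higher and 0 to 3 lower in H3.3K27M. Of 31 calls on named chaperone genes over the 3 comparisons, 18 held under every alternative that kept all libraries, and 5 of these also held whichever library was left out. Those 5 were the differences of Cct2, Stip1, Dnajb1 and Hsph1 in Cbfa2t2_KO and of Hspd1 in H3.3K27M. No call changed its sign under any alternative. Replicate numbers used below only name the libraries, in the order of the sample records or columns, and pair none across groups.

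**Figure D2:**
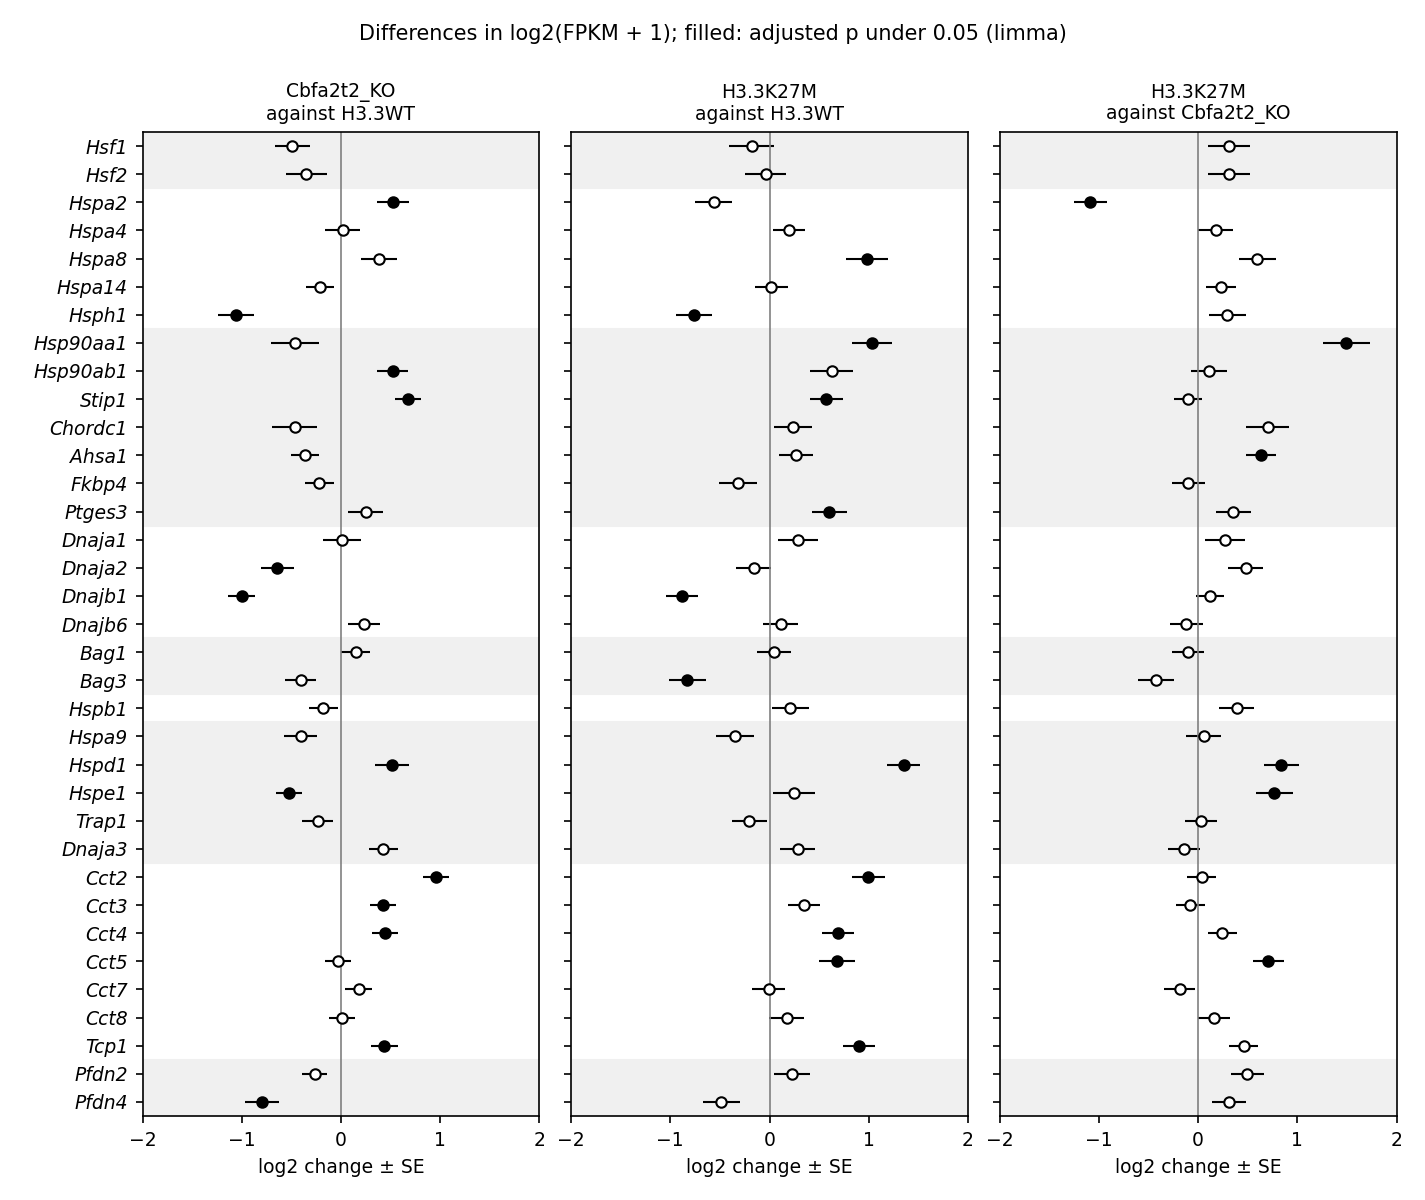
Log2 change ± SE on the log2(FPKM + 1) scale for the 35 tested genes in the 3 comparisons, ordered by role, with filled points for an adjusted p under 0.05. Each CCT gene that passed against H3.3WT lies to the right of 0 in the comparison where it passed, Dnajb1 and Hsph1 lie to the left in both, and Hsp90aa1 has the largest difference between H3.3K27M and Cbfa2t2_KO.

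The heat shock factors were expressed at low levels and neither passed the limma test in any comparison (1 of the 2, Hsf1 in Cbfa2t2_KO, had an unadjusted p under 0.05). Hsf1, the factor that drives the heat shock response, stood at 5.71 and 4.76 FPKM in H3.3WT, 3.52 and 3.33 in Cbfa2t2_KO, and 5.57 and 3.60 in H3.3K27M. Both Cbfa2t2_KO libraries were under all others, and the H3.3K27M libraries spanned much of the range between. Its log2 change in Cbfa2t2_KO was -0.49 ± 0.18 (adjusted p = 0.0636), which passed in a limma fit without a variance trend (adjusted p = 0.0487) and after the sequence correction (-0.64, adjusted p = 0.0137). In H3.3K27M its log2 change was -0.18 ± 0.23 (adjusted p = 0.589). Hsf2, a related factor active in development, stood at 3.29 and 4.31 FPKM in H3.3WT, 3.27 and 2.30 in Cbfa2t2_KO, and 3.27 and 4.08 in H3.3K27M. Its groups overlapped or nearly touched, and its adjusted p was 0.221 and 0.911 against H3.3WT. RNA levels of these factors do not measure their activity, which is known to be set mainly by the state of the protein.

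The DNA element these factors bind was looked for in the promoters, since several of the genes named below are known heat shock genes. RefSeq promoters of the build GRCm38.p6, each 300 bases long from 250 before to 50 after an annotated start, were matched for 31 of the 37 genes by symbol. Hsf1, Hspa8, Hspa9, Hsp90aa1, Hsp90ab1 and Cct4 had no matched promoter and were not searched. Dnajb1 and Bag3 were searched and held no match. The same search found none in the promoters of Hspa1a and Hspa1b, which are outside the set. The search asked for exact matches of GAANNTTCNNGAA or its reverse complement TTCNNGAANNTTC, on both strands. Matches were found in 5 of the 31 genes (16.1%), Hspd1, Hspe1, Hsph1, Chordc1 and Dnajb6, against 179 of all 27025 genes with a promoter (0.662%). The windows below are shown because they carry these matches, printed on the strand of the named gene with the matched bases in capitals. Hspd1 and Hspe1, the genes of mitochondrial HSP60 and HSP10, lie head to head on opposite strands, and 1 of the 2 Hspd1 windows shares 285 bases with that of Hspe1. The match lies in the shared stretch, so the window of Hspe1 stands for both, and the other Hspd1 window held no match. The windows are Hspe1 at chr1:55087898-55088197 (forward strand), Hsph1 at chr5:149636287-149636586 (reverse strand), Chordc1 at chr9:18292017-18292316 (forward strand) and Dnajb6 at chr5:29735648-29735947 (forward strand).
Hspe1: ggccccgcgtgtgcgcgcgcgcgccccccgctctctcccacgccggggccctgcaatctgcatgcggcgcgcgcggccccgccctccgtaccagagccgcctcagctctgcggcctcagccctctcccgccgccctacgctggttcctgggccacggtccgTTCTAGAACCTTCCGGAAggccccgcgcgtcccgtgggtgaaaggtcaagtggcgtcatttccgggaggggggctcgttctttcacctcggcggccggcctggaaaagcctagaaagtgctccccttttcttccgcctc
Hsph1: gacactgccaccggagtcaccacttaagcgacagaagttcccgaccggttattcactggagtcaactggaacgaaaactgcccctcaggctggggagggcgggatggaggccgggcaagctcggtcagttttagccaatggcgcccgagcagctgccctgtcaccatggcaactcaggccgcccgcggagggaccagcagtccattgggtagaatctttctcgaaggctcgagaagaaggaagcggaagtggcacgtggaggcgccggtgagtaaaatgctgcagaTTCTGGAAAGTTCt
Chordc1: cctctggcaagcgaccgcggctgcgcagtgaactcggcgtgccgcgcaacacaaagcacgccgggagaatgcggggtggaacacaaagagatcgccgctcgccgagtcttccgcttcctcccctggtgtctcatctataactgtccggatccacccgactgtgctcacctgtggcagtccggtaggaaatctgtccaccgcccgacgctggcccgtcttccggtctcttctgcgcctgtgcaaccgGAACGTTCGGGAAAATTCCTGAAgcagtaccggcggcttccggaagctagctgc
Dnajb6: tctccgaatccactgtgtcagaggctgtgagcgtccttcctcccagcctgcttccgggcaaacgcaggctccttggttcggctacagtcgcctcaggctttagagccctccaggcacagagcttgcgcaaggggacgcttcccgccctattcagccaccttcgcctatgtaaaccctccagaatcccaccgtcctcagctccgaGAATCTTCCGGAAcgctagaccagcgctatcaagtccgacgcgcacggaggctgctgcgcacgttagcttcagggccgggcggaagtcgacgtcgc
In the Hspe1 window 2 overlapping matches form a run of 18 bases, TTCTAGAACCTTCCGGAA, at bases 162 to 179. In the Chordc1 window 3 overlapping matches span 23 bases, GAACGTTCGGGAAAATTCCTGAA, at bases 247 to 269. Hsph1 and Dnajb6 each hold a single match of 13 bases, also found in a second, overlapping window of each gene. These matches describe the sequence only, and binding was not measured. Against H3.3WT, Hspd1 rose in both lines, Hsph1 fell in both, Hspe1 fell in Cbfa2t2_KO, and Chordc1 and Dnajb6 passed in neither.

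Among the cytosolic HSP70 and HSP110 genes, the constitutive Hspa8 rose in H3.3K27M and Hsph1 fell in both lines. Hspa8 (ENSMUSG00000015656, chromosome 9, 40800984 to 40810087, forward strand), the main housekeeping HSP70, stood at 193 and 271 FPKM in H3.3WT, 296 and 300 in Cbfa2t2_KO, and 453 and 451 in H3.3K27M. The 3 groups did not overlap, and the H3.3K27M libraries were the highest by a wide margin. Its mean was 1.95 times that of H3.3WT in H3.3K27M (log2 change 0.98 ± 0.21, adjusted p = 0.0128). In Cbfa2t2_KO its ratio to H3.3WT was 1.29 (log2 change 0.38 ± 0.18, adjusted p = 0.132), and H3.3K27M against Cbfa2t2_KO gave 0.60 ± 0.19 (adjusted p = 0.0805). Without H3.3WT replicate 1, the lower of that pair, the H3.3K27M change was 0.74 (adjusted p = 0.137).

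Hsph1 (ENSMUSG00000029657, chromosome 5, 149614287 to 149636376, reverse strand) encodes HSP105, an HSP110 protein that exchanges the nucleotide of HSP70 and helps to dissolve aggregates. It stood at 12.6 and 15.2 FPKM in H3.3WT, 6.95 and 5.35 in Cbfa2t2_KO, and 8.15 and 7.32 in H3.3K27M. All 4 libraries of the other lines lay under both H3.3WT libraries. Cbfa2t2_KO gave a log2 change of -1.06 ± 0.18 (adjusted p = 0.00459), the largest fall among the 35 genes, and H3.3K27M one of -0.76 ± 0.18 (adjusted p = 0.019). That of H3.3K27M did not pass without H3.3WT replicate 1 (adjusted p = 0.0595), without H3.3WT replicate 2 (0.146) or without H3.3K27M replicate 2 (0.0748). Hspa2, an HSP70 known best from the testis, differed in another way. It stood at 7.22 and 8.15 FPKM in H3.3WT, 10.9 and 12.1 in Cbfa2t2_KO, and 4.76 and 4.98 in H3.3K27M, so that the 2 other lines lay on opposite sides of H3.3WT. It rose in Cbfa2t2_KO (0.52 ± 0.16, adjusted p = 0.0391), with an adjusted p of 0.0739 to 0.165 when any 1 of the 4 libraries was left out. Its difference in H3.3K27M was -0.56 ± 0.18 (adjusted p = 0.0533, and under 0.05 in 4 of 9 alternatives that kept all libraries). Directly compared, Hspa2 was lower in H3.3K27M than in Cbfa2t2_KO by a log2 change of -1.09 ± 0.17 (adjusted p = 0.0134), or -1.02 (adjusted p = 0.119) without Cbfa2t2_KO replicate 2. Hspa4, another HSP110 protein, ran from 55.5 to 76.7 FPKM over the 6 libraries and Hspa14, a ribosome-linked HSP70, from 21.6 to 28.4, and neither passed in any comparison.

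Of the cytosolic HSP90 pair, Hsp90aa1 rose in H3.3K27M and Hsp90ab1 rose in Cbfa2t2_KO. Hsp90aa1 (ENSMUSG00000021270, chromosome 12, 110690605 to 110702728, reverse strand), the stress-inducible HSP90, stood at 61.1 and 86.4 FPKM in H3.3WT, 66.2 and 41.7 in Cbfa2t2_KO, and 147 and 152 in H3.3K27M. Both H3.3K27M libraries were far above the other four, among which H3.3WT and Cbfa2t2_KO overlapped. Its mean in H3.3K27M was 2.03 times that of H3.3WT (log2 change 1.03 ± 0.20, adjusted p = 0.00825) and 2.78 times that of Cbfa2t2_KO (1.49 ± 0.24, adjusted p = 0.0142). In Cbfa2t2_KO the log2 change against H3.3WT was -0.46 ± 0.24 (adjusted p = 0.171). Without H3.3WT replicate 1 the H3.3K27M change was 0.79 (adjusted p = 0.0795), and the direct difference had an adjusted p of 0.105 without Cbfa2t2_KO replicate 2 and 0.0551 without H3.3K27M replicate 2.

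Hsp90ab1 (ENSMUSG00000023944, chromosome 17, 45567775 to 45573271, reverse strand), the constitutive HSP90, stood at 1001 and 922 FPKM in H3.3WT, 1385 and 1373 in Cbfa2t2_KO, and 1552 and 1422 in H3.3K27M. All 4 libraries of the other lines lay above H3.3WT. It rose in Cbfa2t2_KO (log2 change 0.52 ± 0.16, adjusted p = 0.0347), and the change of 0.63 ± 0.22 in H3.3K27M did not pass (adjusted p = 0.0638, and under 0.05 in 4 of 9 alternatives that kept all libraries). The call in Cbfa2t2_KO was lost under quantile normalization (adjusted p = 0.0571), in a fit of all 6 libraries (0.0581) and when any 1 library was left out (0.0721 to 0.272). The ratio of Hsp90aa1 to Hsp90ab1 within a library was 0.0611 and 0.0937 in H3.3WT, 0.0478 and 0.0304 in Cbfa2t2_KO, and 0.0950 and 0.107 in H3.3K27M. The inducible form was thus lowest beside the constitutive form in Cbfa2t2_KO, with no overlap between Cbfa2t2_KO and the other groups.

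**Figure D3:**
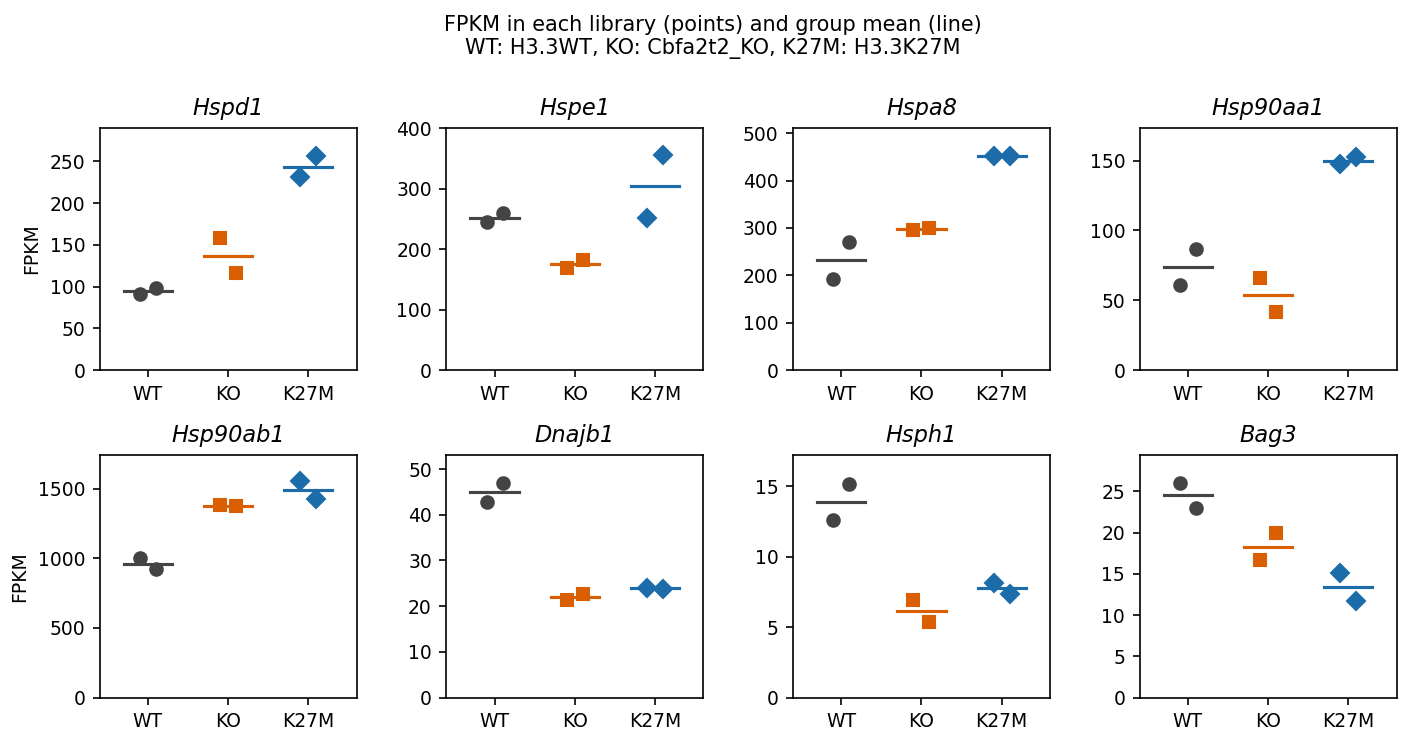
FPKM in each library (points) and the group mean (line) for 8 chaperone genes, on linear axes that start at 0. Hspa8, Hsp90aa1 and Hspd1 are highest in both H3.3K27M libraries, Dnajb1, Hsph1 and Bag3 are highest in both H3.3WT libraries, and Hspe1 is lowest in both Cbfa2t2_KO libraries.

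Of the 5 HSP90 cochaperones, Stip1 rose in both lines, Ptges3 rose in H3.3K27M and Ahsa1 differed between H3.3K27M and Cbfa2t2_KO. Stip1 (ENSMUSG00000024966, chromosome 19, 7020702 to 7039967, reverse strand), the adaptor HOP that hands clients from HSP70 to HSP90, stood at 150 and 143 FPKM in H3.3WT, 238 and 231 in Cbfa2t2_KO, and 219 and 217 in H3.3K27M. The libraries of both other lines lay well above H3.3WT and close to each other. Cbfa2t2_KO gave a log2 change of 0.67 ± 0.13 (adjusted p = 0.00678), and H3.3K27M one of 0.57 ± 0.17 (adjusted p = 0.0368). The call of H3.3K27M was lost under quantile normalization (adjusted p = 0.0592) and when any 1 of its 4 libraries was left out (0.0512 to 0.213). Ptges3, the cochaperone p23 that holds HSP90 in its closed state, stood at 22.6 and 29.1 FPKM in H3.3WT, 34.1 and 27.6 in Cbfa2t2_KO, and 40.8 and 38.2 in H3.3K27M. Its H3.3K27M libraries were the highest, and Cbfa2t2_KO overlapped H3.3WT. The rise in H3.3K27M (0.60 ± 0.18, adjusted p = 0.0392) was lost after the sequence correction (0.25, adjusted p = 0.258) and when any 1 library was left out (adjusted p from 0.075 to 0.255).

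Ahsa1, the activator of the HSP90 ATPase, stood at 41.7 and 46.5 FPKM in H3.3WT, 32.8 and 35.3 in Cbfa2t2_KO, and 49.3 and 57.4 in H3.3K27M. H3.3WT lay between the other lines without overlap. Neither difference from H3.3WT passed (adjusted p = 0.0752 and 0.263), and the difference between H3.3K27M and Cbfa2t2_KO did (0.63 ± 0.15, adjusted p = 0.0416). That call is a narrow one, with an adjusted p of 0.0518 without a filter on mean FPKM, 0.0513 under median-of-ratios scaling, 0.0533 without a variance trend, 0.0608 with only the 4 libraries compared, and 0.136 to 0.206 without Cbfa2t2_KO replicate 1, Cbfa2t2_KO replicate 2 or H3.3K27M replicate 2. Chordc1, a zinc-binding HSP90 partner whose promoter holds the longest run of matches above, showed the same order of groups at a low level. It stood at 3.43 and 4.21 FPKM in H3.3WT, 3.20 and 1.88 in Cbfa2t2_KO, and 4.55 and 4.78 in H3.3K27M, and H3.3K27M against Cbfa2t2_KO gave 0.70 ± 0.22 (adjusted p = 0.0765). Fkbp4 stood at 652 and 650 FPKM in H3.3WT, 530 and 590 in Cbfa2t2_KO, and 505 and 538 in H3.3K27M. Its libraries in both other lines lay under H3.3WT, with an adjusted p of 0.278 and 0.242.

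The J-domain cochaperones, which bring clients to HSP70 and start its ATPase, included Dnajb1, which fell in both lines, and Dnaja2, which fell in Cbfa2t2_KO. Dnajb1 (ENSMUSG00000005483, chromosome 8, 83608193 to 83612653, forward strand), the inducible HSP40, stood at 42.8 and 47.0 FPKM in H3.3WT, 21.2 and 22.6 in Cbfa2t2_KO, and 24.04 and 23.79 in H3.3K27M. All 4 libraries of the other lines lay near one another and far under H3.3WT. Its mean was 0.489 of that of H3.3WT in Cbfa2t2_KO (log2 change -0.999 ± 0.14, adjusted p = 0.00189), and for H3.3K27M the ratio was 0.533 (-0.88 ± 0.16, adjusted p = 0.00669). Without H3.3WT replicate 2 the second had a log2 change of -0.81 (adjusted p = 0.0656). Dnaja2, a constitutive HSP40, stood at 49.0 and 58.9 FPKM in H3.3WT, 38.3 and 30.3 in Cbfa2t2_KO, and 45.1 and 51.0 in H3.3K27M. It fell in Cbfa2t2_KO without overlap (-0.64 ± 0.17, adjusted p = 0.0212), and H3.3K27M overlapped H3.3WT (-0.16 ± 0.17, adjusted p = 0.52). The fall in Cbfa2t2_KO had an adjusted p of 0.104 without H3.3WT replicate 2 and 0.135 without Cbfa2t2_KO replicate 2. After the sequence correction Dnaja2 also passed in H3.3K27M (-0.43, adjusted p = 0.0305). Dnaja1 and Dnajb6, which holds 1 of the promoter matches, ran from 7.47 to 11.7 and from 11.6 to 16.1 FPKM over the 6 libraries and passed in no comparison.

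The BAG proteins release clients from HSP70, and Bag3 also carries them to autophagy. Bag3 (ENSMUSG00000030847, chromosome 7, 128523616 to 128546981, forward strand) stood at 26.0 and 23.0 FPKM in H3.3WT, 16.7 and 19.9 in Cbfa2t2_KO, and 15.1 and 11.7 in H3.3K27M. The groups did not overlap, with H3.3WT highest and H3.3K27M lowest. It fell in H3.3K27M (log2 change -0.83 ± 0.19, adjusted p = 0.0145), and its change of -0.40 ± 0.16 in Cbfa2t2_KO did not pass (adjusted p = 0.0785). The direct difference was -0.43 (adjusted p = 0.157), so the 2 lines were not shown to differ. The call in H3.3K27M was lost after the sequence correction (-0.46, adjusted p = 0.0783), and had an adjusted p of 0.103 without H3.3WT replicate 1, 0.0633 without H3.3WT replicate 2 and 0.0661 without H3.3K27M replicate 2. Bag1 ran from 51.5 to 66.7 FPKM with all groups overlapping. Hspb1, the small heat shock protein HSP27 that holds unfolded proteins in solution, ran from 106 to 169 FPKM and passed in no comparison (adjusted p = 0.371, 0.432 and 0.178).

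Among the mitochondrial chaperones, Hspd1 rose in both lines and Hspe1 fell in Cbfa2t2_KO. Hspd1 (ENSMUSG00000025980, chromosome 1, 55077835 to 55088243, reverse strand) encodes HSP60, the folding ring, and stood at 91.0 and 98.6 FPKM in H3.3WT, 158 and 116 in Cbfa2t2_KO, and 231 and 256 in H3.3K27M. The 3 groups did not overlap, with H3.3WT lowest and H3.3K27M highest. Its mean was 2.57 times that of H3.3WT in H3.3K27M (log2 change 1.35 ± 0.17, adjusted p = 0.00196), the largest rise among the 35 genes in that comparison. In Cbfa2t2_KO it was 1.45 times that of H3.3WT (0.51 ± 0.17, adjusted p = 0.048). H3.3K27M lay above Cbfa2t2_KO by 0.84 ± 0.18 (adjusted p = 0.0307), with an adjusted p of 0.0504 without Cbfa2t2_KO replicate 1, 0.238 without Cbfa2t2_KO replicate 2 and 0.102 without H3.3K27M replicate 2. The call in Cbfa2t2_KO was lost in 5 of 9 alternatives that kept all libraries, with an adjusted p up to 0.118 after the sequence correction. It was also lost without H3.3WT replicate 1 (0.157), H3.3WT replicate 2 (0.105) and Cbfa2t2_KO replicate 1 (0.231).

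Hspe1 (ENSMUSG00000073676, chromosome 1, 55088132 to 55091307, forward strand) encodes HSP10, the lid of that ring, and stood at 245 and 260 FPKM in H3.3WT, 169 and 181 in Cbfa2t2_KO, and 252 and 356 in H3.3K27M. Both Cbfa2t2_KO libraries were under all others, while H3.3K27M overlapped H3.3WT. It fell in Cbfa2t2_KO (log2 change -0.52 ± 0.13, adjusted p = 0.0202), the comparison in which its partner Hspd1 rose, and its change in H3.3K27M was 0.25 ± 0.21 (adjusted p = 0.413). H3.3K27M lay above Cbfa2t2_KO by 0.77 ± 0.19 (adjusted p = 0.0428). The call against H3.3WT was lost under median-of-ratios scaling (-0.39, adjusted p = 0.121), in a fit of all 6 libraries (0.0626) and when any 1 library was left out (0.0605 to 0.111). The direct call was lost without the filter on low values (0.0518), under median-of-ratios scaling (0.0588), with only the 4 libraries compared (0.0651) and without Cbfa2t2_KO replicate 1 (0.139), Cbfa2t2_KO replicate 2 (0.22) or H3.3K27M replicate 2 (0.132).

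The ratio of Hspd1 to Hspe1 FPKM within a library was 0.372 and 0.379 in H3.3WT, 0.932 and 0.642 in Cbfa2t2_KO, and 0.918 and 0.719 in H3.3K27M. All 4 libraries of the other lines thus had a higher ratio than H3.3WT. The annotated genes overlap by 112 bases on opposite strands and the strand of the libraries is not stated, so reads of that stretch cannot be told apart. The annotation also names 5 pseudogenes of Hspd1 and 6 of Hspe1, with which reads may be shared, and the levels of this pair are uncertain to that extent. Other genes described here have the same limit, these among them. Exons of Tcp1 overlap those of Acat3 and Mrpl18 on the opposite strand, and exons of Cct6a overlap those of Psph. On the same strand, exons of Hspa14 overlap those of Gm45902, and exons of Dnaja3 those of Vasn. The annotation names 1 pseudogene each of Ptges3, Cct3, Tcp1, Hspa9 and Dnaja1.

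The other mitochondrial chaperones passed in no comparison. Hspa9, the mitochondrial HSP70 known as mortalin, stood at 257 and 331 FPKM in H3.3WT, 234 and 208 in Cbfa2t2_KO, and 230 and 228 in H3.3K27M. All 4 libraries of the other lines lay under H3.3WT, with log2 changes of -0.40 ± 0.17 (adjusted p = 0.0927) and -0.35 ± 0.19 (adjusted p = 0.209). Both differences passed under quantile normalization (adjusted p = 0.0198 and 0.0397) and after the sequence correction (0.0125 and 0.0117). Trap1, the mitochondrial HSP90, ran from 39.96 to 54.4 FPKM, with adjusted p-values of 0.28 and 0.428 against H3.3WT. Dnaja3, the J-domain partner of mortalin, stood at 11.2 and 11.8 FPKM in H3.3WT, 16.1 and 15.5 in Cbfa2t2_KO, and 15.5 and 12.99 in H3.3K27M. It lay above H3.3WT in all 4 other libraries, with a log2 change of 0.43 ± 0.15 (adjusted p = 0.054) and 0.28 (adjusted p = 0.262).

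The cytosolic chaperonin CCT is a double ring of related subunits. Of its 7 subunit genes in the set, 4 rose in each comparison with H3.3WT (57.1%, against 13.1% of all tested genes that rose in Cbfa2t2_KO and 8.42% in H3.3K27M), with a median log2 change of 0.43 and 0.68. None of the 7 fell by limma, or was lower at an unadjusted p under 0.05, but Cct6a, the subunit gene outside the set, fell in Cbfa2t2_KO (-0.65, adjusted p = 0.0107) and did not pass in H3.3K27M. The summed level of the 7 was 698 and 696 FPKM in H3.3WT, 886 and 866 in Cbfa2t2_KO, and 995 and 1111 in H3.3K27M, without overlap, and with Cct6a added it was 842 and 840.1, 986 and 950.1, and 1116 and 1239 FPKM. The genes that rose were Cct2, Cct3, Cct4 and Tcp1 in Cbfa2t2_KO and Cct2, Cct4, Cct5 and Tcp1 in H3.3K27M. Cct7 and Cct8 passed in neither.

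Cct2 (ENSMUSG00000034024, chromosome 10, 117051001 to 117063814, reverse strand) stood at 115 and 108 FPKM in H3.3WT, 220 and 216 in Cbfa2t2_KO, and 221 and 226 in H3.3K27M. All 4 libraries of the other lines lay at about the same level, far above H3.3WT. The log2 change was 0.96 ± 0.13 in Cbfa2t2_KO (adjusted p = 0.00179), the largest rise among the 35 genes there, and 1.00 ± 0.17 in H3.3K27M (adjusted p = 0.00505). Without H3.3WT replicate 2 the second was 0.95 (adjusted p = 0.0564). Tcp1 (ENSMUSG00000068039, chromosome 17, 12915701 to 12925067, forward strand), the subunit CCT1, stood at 51.3 and 52.6 FPKM in H3.3WT, 75.7 and 66.2 in Cbfa2t2_KO, and 94.1 and 102 in H3.3K27M. The groups did not overlap, with H3.3K27M highest. Its log2 change was 0.44 ± 0.14 (adjusted p = 0.0394) in Cbfa2t2_KO and 0.90 ± 0.16 (adjusted p = 0.00613) in H3.3K27M. The first was lost in a fit without a variance trend (0.0649) and when any 1 library was left out (0.0761 to 0.173), and the second without H3.3WT replicate 1 (0.0542) or 2 (0.0528).

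Cct4 stood at 56.5 and 57.9 FPKM in H3.3WT, 82.1 and 74.8 in Cbfa2t2_KO, and 89.03 and 97.3 in H3.3K27M, again without overlap and with H3.3K27M highest. Its log2 change was 0.45 ± 0.13 (adjusted p = 0.0324) and 0.69 ± 0.16 (adjusted p = 0.0161). Both calls were lost after the sequence correction (0.23, adjusted p = 0.0915, and 0.28, adjusted p = 0.0912). The first was also lost without a variance trend (0.0559) and without any 1 library (0.0823 to 0.136), and the second without H3.3WT replicate 1 (0.111), H3.3WT replicate 2 (0.103) or H3.3K27M replicate 2 (0.0559). Cct3 stood at 65.9 and 60.8 FPKM in H3.3WT, 87.5 and 83.5 in Cbfa2t2_KO, and 76.4 and 85.6 in H3.3K27M. Both other lines lay above H3.3WT and overlapped each other, with log2 changes of 0.43 ± 0.13 (adjusted p = 0.0376) and 0.35 (adjusted p = 0.146). The call in Cbfa2t2_KO was lost without a variance trend (0.0642), after the correction (0.0763), in a fit of all 6 libraries (0.0516) and without any 1 library (0.0712 to 0.16).

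Cct5 (ENSMUSG00000022234, chromosome 15, 31590800 to 31601804, reverse strand) was the CCT gene that passed between H3.3K27M and Cbfa2t2_KO. It stood at 218 and 218 FPKM in H3.3WT, 216 and 212 in Cbfa2t2_KO, and 325 and 376 in H3.3K27M. H3.3WT and Cbfa2t2_KO lay within a few FPKM of each other, and both H3.3K27M libraries were far above them. The log2 change was 0.68 ± 0.18 in H3.3K27M against H3.3WT (adjusted p = 0.027) and 0.71 ± 0.15 against Cbfa2t2_KO (adjusted p = 0.0323), while Cbfa2t2_KO against H3.3WT gave -0.03 ± 0.13 (adjusted p = 0.874). The first call was lost without H3.3WT replicate 1 (0.158), H3.3WT replicate 2 (0.163) or H3.3K27M replicate 2 (0.0647). The direct call was lost with only the 4 libraries compared (0.0563) and without Cbfa2t2_KO replicate 1 (0.101), Cbfa2t2_KO replicate 2 (0.222) or H3.3K27M replicate 2 (0.0989). Cct7 and Cct8 ran from 93.6 to 122 and from 91.4 to 119 FPKM and passed in no comparison. Cct6a, outside the rule, fell in Cbfa2t2_KO, where it stood at 99.4 and 84.3 FPKM against 144 and 144 in H3.3WT (-0.65 ± 0.14, adjusted p = 0.0107). In H3.3K27M, Cct6a stood at 121 and 128 FPKM (-0.21, adjusted p = 0.363).

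The shares of the subunits shifted accordingly. Cct2 made up 16.4% and 15.6% of the summed FPKM of the 7 subunit genes, Cct6a left out, in H3.3WT, 24.8% and 24.99% in Cbfa2t2_KO, and 22.2% and 20.3% in H3.3K27M. Its share was thus highest in Cbfa2t2_KO and lowest in H3.3WT, without overlap. The share of Cct5 was 31.3% in both H3.3WT libraries, 24.3% and 24.4% in Cbfa2t2_KO, and 32.7% and 33.8% in H3.3K27M. In Cbfa2t2_KO the 2 subunits therefore had nearly equal shares, whereas Cct5 led in the other lines. With Cct6a in the sum, the share of Cct2 was 13.6% and 12.9% in H3.3WT, 22.3% and 22.8% in Cbfa2t2_KO, and 19.8% and 18.2% in H3.3K27M, and that of Cct5 was 25.95% and 25.96%, 21.9% and 22.3%, and 29.2% and 30.3%. Cct6a itself made up 17.1% and 17.2% in H3.3WT, 10.1% and 8.88% in Cbfa2t2_KO, and 10.8% and 10.3% in H3.3K27M.

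**Figure D4:**
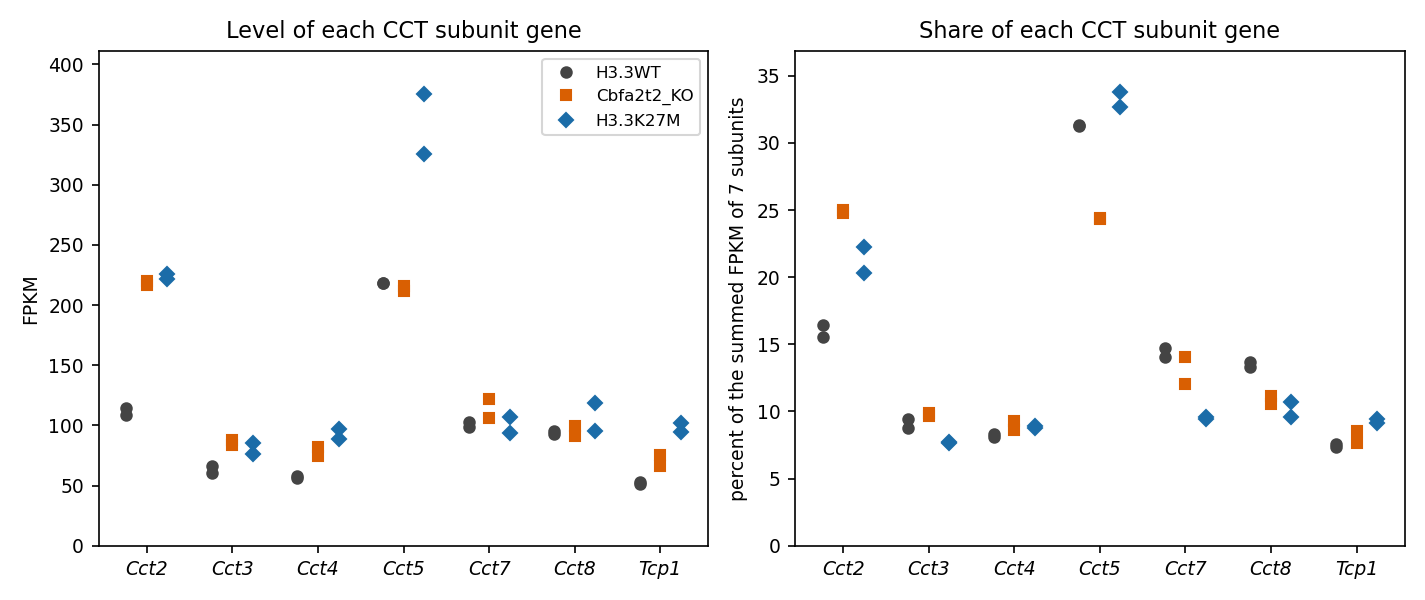
FPKM (left) and percent of the summed FPKM of the 7 CCT subunit genes (right), 1 point per library. Cct2 is higher in all 4 libraries of Cbfa2t2_KO and H3.3K27M than in H3.3WT, and Cct5 has its highest level and share in H3.3K27M and its lowest share in Cbfa2t2_KO.

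Of the 2 genes of prefoldin, which carries nascent actin and tubulin to CCT, neither rose and Pfdn4 fell in Cbfa2t2_KO. Pfdn4 (ENSMUSG00000052033, chromosome 2, 170496428 to 170519123, forward strand) stood at 10.0 and 12.1 FPKM in H3.3WT, 5.57 and 6.25 in Cbfa2t2_KO, and 7.96 and 7.20 in H3.3K27M. H3.3WT was highest and Cbfa2t2_KO lowest, without overlap. It fell in Cbfa2t2_KO (log2 change -0.80 ± 0.17, adjusted p = 0.0108), with an adjusted p of 0.0637 without H3.3WT replicate 2 and 0.0524 without Cbfa2t2_KO replicate 1. Its change of -0.49 ± 0.19 in H3.3K27M did not pass (adjusted p = 0.0856), but passed after the sequence correction (-0.90, adjusted p = 0.0152). Pfdn2 stood at 44.2 and 45.3 FPKM in H3.3WT, 37.2 and 36.9 in Cbfa2t2_KO, and 45.9 and 60.4 in H3.3K27M, with adjusted p-values of 0.145 and 0.376 against H3.3WT.

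A wider list of 97 other chaperone genes, of which 80 were tested, was examined beside these. In Cbfa2t2_KO 7 rose and 11 fell (22.5% called), in H3.3K27M 11 rose and 10 fell (26.2% called), and between H3.3K27M and Cbfa2t2_KO 3 were higher and 1 lower (5% called). These shares lay under, at and under those of all genes (34.6%, 26.2% and 7.80%). The counts of the smaller lists below stand beside the same shares. In Cbfa2t2_KO 13.1% of all genes rose and 21.5% fell, and in H3.3K27M 8.42% rose and 17.8% fell. Among 11 other HSP70 partners, 1 rose and 3 fell in Cbfa2t2_KO (36.4% called), and 2 rose and 2 fell in H3.3K27M (36.4% called). Bag5, a BAG protein of the HSP70 cycle, fell in both, from 18.4 and 20.2 FPKM in H3.3WT to 6.84 and 6.44 in Cbfa2t2_KO (log2 change -1.41, adjusted p = 0.000982) and 9.05 and 10.6 in H3.3K27M (-0.91, adjusted p = 0.00811). St13, the HSP70 cochaperone HIP, rose in H3.3K27M, from 58.6 and 70.4 FPKM to 105 and 103 (0.68, adjusted p = 0.0212). Between H3.3K27M and Cbfa2t2_KO, 2 of the 11 passed (18.2%, against 7.80% of all genes), both higher in H3.3K27M. These were Bag2 (0.87, adjusted p = 0.0187) and St13 (0.80, adjusted p = 0.0277). Hspa12b, at under 5 FPKM, rose in Cbfa2t2_KO (0.52, adjusted p = 0.0462).

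Among 22 other J-domain genes, 3 rose and 1 fell in Cbfa2t2_KO (18.2% called), and 3 rose and none fell in H3.3K27M (13.6% called). Both shares lay under those of all genes. The largest changes on the scale tested were those of Dnajc12 (0.70, adjusted p = 0.0151) and Dnajc21 (-0.67, adjusted p = 0.0321) in Cbfa2t2_KO and of Dnajc2 in H3.3K27M (0.68, adjusted p = 0.028). Dnajc12 was low, at 0.778 and 0.479 FPKM in H3.3WT and 1.638 and 1.635 in Cbfa2t2_KO, and was not tested in H3.3K27M against H3.3WT. Dnajc21 was also the gene of this list that was higher in H3.3K27M than in Cbfa2t2_KO (0.92, adjusted p = 0.0296). Of 16 other HSP90 cochaperones, 1 rose and 1 fell in Cbfa2t2_KO (12.5% called), and 3 rose and 1 fell in H3.3K27M (25% called). None of them passed between H3.3K27M and Cbfa2t2_KO by limma (2 higher and 3 lower at an unadjusted p under 0.05). Pih1d1, an adaptor of the R2TP complex, rose from 16.4 and 13.7 FPKM in H3.3WT to 33.5 and 42.3 in Cbfa2t2_KO (1.27, adjusted p = 0.00172) and to 22.8 and 28.7 in H3.3K27M (0.73, adjusted p = 0.0235). Ppid, the cyclophilin CYP40, rose in H3.3K27M (0.82, adjusted p = 0.0196), Tsc1 fell there (-0.63, adjusted p = 0.0433), and Fkbp8 fell in Cbfa2t2_KO (-0.47, adjusted p = 0.0399).

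Of 3 tested small heat shock proteins and HSF regulators, Hsbp1, which binds heat shock factor trimers, fell in both lines. It stood at 50.9 and 60.6 FPKM in H3.3WT, 24.8 and 29.9 in Cbfa2t2_KO (-1.002, adjusted p = 0.003) and 26.9 and 36.0 in H3.3K27M (-0.81, adjusted p = 0.018), while Hspb11 rose in H3.3K27M (0.71, adjusted p = 0.025). Of 13 other mitochondrial chaperones and proteases, 1 rose and 2 fell in Cbfa2t2_KO (23.1% called), and 1 rose and 4 fell in H3.3K27M (38.5% called). Hscb, a J-domain protein of iron-sulfur cluster assembly, was the gene that rose in both (0.60, adjusted p = 0.0211, and 0.74, adjusted p = 0.0216). Dnajc30 had the largest fall in both, from 31.0 and 34.99 FPKM to 14.02 and 18.5 in Cbfa2t2_KO (-0.99, adjusted p = 0.00441) and to 12.8 and 14.1 in H3.3K27M (-1.23, adjusted p = 0.00257). Of 15 other genes of prefoldin, CCT and tubulin folding, 1 rose and 3 fell in Cbfa2t2_KO (26.7% called), and 1 rose and 2 fell in H3.3K27M (20% called). Tbcc, a tubulin cofactor, fell from 64.9 and 63.4 FPKM to 19.8 and 22.0 in Cbfa2t2_KO (-1.57, adjusted p = 0.000447) and to 17.7 and 21.9 in H3.3K27M (-1.65, adjusted p = 0.00128). Pdrg1, a prefoldin-related gene, fell in both (-1.70, adjusted p = 0.000825, and -1.45, adjusted p = 0.00191), Vbp1, a prefoldin subunit, rose in H3.3K27M (0.98, adjusted p = 0.012), and Tbcd was higher in Cbfa2t2_KO than in H3.3WT (0.69, adjusted p = 0.00971) and lower in H3.3K27M than in Cbfa2t2_KO (-0.68, adjusted p = 0.0385).

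Other groups of genes moved with the same libraries. Of 16 tested immediate early genes, which answer within minutes to serum and to handling of the cells, 2 rose and 9 fell in Cbfa2t2_KO (68.8% called, median log2 change -0.80) and 2 rose and 8 fell in H3.3K27M (62.5% called, -0.63). In the same comparisons 34.6% and 26.2% of all genes were called. Egr1 stood at 173 and 274 FPKM in H3.3WT, 7.55 and 7.60 in Cbfa2t2_KO, and 5.97 and 6.43 in H3.3K27M. Ier3 rose in both (2.47, adjusted p = 0.000357, and 2.40, adjusted p = 0.000776), and Myc was higher in H3.3K27M than in Cbfa2t2_KO (1.44, adjusted p = 0.0147). Of 11 other tested genes listed as targets of heat shock factor 1, 3 rose and 1 fell in Cbfa2t2_KO (36.4% called). In H3.3K27M 1 rose and none fell by limma at an adjusted p under 0.05 (9.09% called, median log2 change 0.28). At an unadjusted p under 0.05, 3 were higher there and 1 was lower. Hspa5, the HSP70 of the endoplasmic reticulum, rose in both, from 88.5 and 109 FPKM to 284 and 230 in Cbfa2t2_KO (1.37, adjusted p = 0.00129) and to 229 and 239 in H3.3K27M (1.25, adjusted p = 0.00304). It was the only gene of this list that passed in H3.3K27M against H3.3WT, and whether heat shock factor 1 controls it in these cells was not tested. Between H3.3K27M and Cbfa2t2_KO, 3 of the 11 were higher and 1 was lower (36.4% called, against 7.80% of all genes). Serpinh1, the collagen chaperone HSP47, fell in Cbfa2t2_KO (-1.31, adjusted p = 0.0018) and was higher in H3.3K27M than in Cbfa2t2_KO (1.54, adjusted p = 0.0104), whereas Sqstm1 was lower there (-0.74, adjusted p = 0.0391). Of the 13 mitochondrially encoded mRNAs, none passed in Cbfa2t2_KO by limma or at an unadjusted p under 0.05. In H3.3K27M 9 rose (69.2%, against 8.42% of all genes, median 0.73), and 2 were higher in H3.3K27M than in Cbfa2t2_KO (15.4%, against 3.12% of all genes). Among them mt-Co2 stood at 374 and 432 FPKM in H3.3WT, 605 and 394 in Cbfa2t2_KO, and 737 and 862 in H3.3K27M, and mt-Atp6 had the largest difference from Cbfa2t2_KO (0.87, adjusted p = 0.0432). The part of these groups in the chaperone values was not tested.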

How the data were processed

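Poly(A) RNA-seq was available for 6 libraries, 2 in each of 3 lines. FPKM values were used as deposited by the authors in 2 tables, each filtered to genes with at least 0.5 FPKM in at least 1 library. Trim Galore, HISAT2, StringTie, DESeq and the build GRCm38 are named in the submitters' processing notes, without versions. The H3.3K27M columns carry only the letter M. The test was limma 3.58.1 (R 4.3.3, eBayes with trend) on log2 values of FPKM plus a pseudocount of 1, for genes averaging 1 FPKM or more over the fitted libraries, adjusted over all genes by Benjamini and Hochberg and read at 0.05. Comparisons with H3.3WT used 4 libraries, and that of the other lines used all 6. An exact permutation test of 2 against 2 libraries cannot go below p = 0.333. The procedure was run on simulated data drawn from its own variance model, so that run does not measure its error rate on these libraries. Alternatives changed the pseudocount (0.1), the filter (none, 5 FPKM), scaling (median of ratios, quantile), variance moderation, the libraries fitted and spline trends on GC content, transcript length and number of exons (the sequence correction), and left out each library. Coordinates, overlaps and pseudogene names came from GENCODE vM21, which held 14652 of 14667 gene IDs. Promoters came from RefSeq. Genes were described library by library if they passed in at least 1 comparison without overlap or belonged to the HSP70, HSP90, heat shock factor or chaperonin core, and other lists by counts with their largest rise and fall. The members and all gene lists were chosen with earlier results of these data known. A gene of the list of other heat shock factor 1 targets is not reported here and not counted in it. Python 3.11.15 and matplotlib 3.10.9 drew the figures.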

Additional observations from a re-analysis of the deposited data

How the results depend on the processing

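All genes called numbered 1915 to 3038 in Cbfa2t2_KO when 1 library was left out (4028 with all), 1007 to 2790 in H3.3K27M (3049) and 29 to 786 between those lines (905). The last count was 1401 after the sequence correction and 554 with only the 4 libraries compared. Chaperone genes higher in Cbfa2t2_KO numbered 4 without a variance trend, 5 after the correction, 5 in a fit of all 6 libraries and 2 to 3 with 1 library left out, and those lower 11 after the correction and 2 to 4 with 1 left out. In H3.3K27M, 2 to 7 were higher with 1 left out, and lower were 5 under quantile normalization, 6 after the correction and 0 to 3 with 1 left out. Their median log2 change there was 0.362 under median-of-ratios scaling, 0.0336 after the correction and 0.0787 to 0.27 with 1 left out. Between H3.3K27M and Cbfa2t2_KO, 3 were higher without a filter, 3 under median-of-ratios scaling, 2 with 4 libraries and 0 to 6 with 1 left out, and 0 to 1 were lower. The cause of these shifts was not tested. Signs reversed only for differences that did not pass. In Cbfa2t2_KO, Cct5 was at 0.0991 under median-of-ratios scaling. In H3.3K27M, Hsf2 was at 0.0856 under that scaling and 0.103 under quantile normalization, and Hspe1 at -0.0215 under the latter and -0.0573 after the correction. With 1 library left out, Hsf1 there ran from -0.436 to 0.0794, Hsf2 from -0.19 to 0.117 and Hspe1 from -0.0015 to 0.494. Between the lines, quantile normalization gave -0.0451 for Cct2 and -0.0241 for Hsp90ab1, and the correction -0.0852 for Cct2, -0.0605 for Hsf2, -0.0841 for Hspa9 and -0.117 for Pfdn4. With 1 library left out, Cct3 ran from -0.16 to 0.0026 and Hspa9 from -0.0279 to 0.141. A lone library was assumed to vary like the other groups. No paired analysis was possible because the labels give no replicate numbers. With 2 libraries a group and no counts, small differences and low genes are not resolved.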
